A study of Mus musculus with 4 samples.

Results

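The genes described here are 10 regulators and products of cartilage and bone, chosen by name: the transcription factor genes Sox9, Sox5, Sox6, Runx1, Runx2 and Sp7, the bone genes Alpl and Spp1, and the cartilage matrix genes Acan and Comp. A probe set carrying a single gene symbol was found for 8 of the 10, out of 19938 genes with such a probe set, and each of the 8 had exactly 1. Runx2 and Spp1 are not analysed here. RNA was profiled on 4 whole-transcript arrays from the mouse tumour lines 167 and 365, with 1 array for each line and vector. Both lines came from soft tissue tumours of C57BL6/SV129J mice that lacked p53 and had lost Smarcb1, part of the SWI/SNF complex that remodels chromatin. Cells carried either the empty pMIG retrovirus or pMIG with Smarcb1, and RNA was taken 3 days after infection. Per the labels, all 4 arrays therefore share the loss of p53 and the deficiency of the cells' own Smarcb1, and the Smarcb1 restored was expressed from a retrovirus. The design text gives the aim of the early time point as a bias towards direct targets of Smarcb1. No repeat culture of a line is described. The only replication for the vector is that of the 2 lines, and the comparison between the lines has 1 line on each side.

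In the growing skeleton, Sox9 commits mesenchymal cells to cartilage and, together with Sox5 and Sox6, switches on the genes of cartilage matrix, among them Acan. Runx2 and then Sp7 (osterix) commit cells to the osteoblast lineage, in which alkaline phosphatase (Alpl) supplies phosphate for mineral and osteopontin (Spp1) is laid down in bone. Runx1, best known as a regulator of blood stem cells, is also active in early mesenchymal and cartilage progenitors. Runx proteins bind DNA with the partner Cbfb, whereas SOX proteins bind through a high-mobility-group domain.

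RefSeq (GRCm38.p6) start-site windows, reaching from 250 bases before to 50 after a start, were found for 7 of the 10 genes, 15 windows in all. Windows were searched on both strands for the RUNX letters TGTGGT and for the SOX letters ACAAAG or ACAATG. In 1 Sox6 window a match of each kind shared letters. The RUNX letters occur in 16.8% of all 32851 windows of this length, and in 5 of the 15 windows here. The SOX letters occur in 28.6% of all windows and in 10 of the 15. Sox6 alone has 6 of the 15 windows, and the windows of 1 gene are not independent. Just after one start of Runx1 and the start of Runx2 lies a pair of RUNX matches, read as ACCACA on the gene's strand. They are shown because Runx1 was above background on every array while Runx2 could not be read. The window of the other Runx1 start holds no RUNX letters, and the single Runx1 probe set does not tell the starts apart. Runx2 has 1 further match, at -80 from its start. The stretches that hold the pairs are chr16:92826025-92826054 (minus strand) and chr17:44814583-44814612 (minus strand), 30 bases each, with the RUNX letters in capitals. Of the 30 bases, 27 are identical. Both stretches were aligned on the first match of the pair, so the letters of that match are identical by construction.
Runx1: cataaacaACCACAgaACCACAagttgggt
Runx2: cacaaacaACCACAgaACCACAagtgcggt

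Alpl has 2 starts in the table, and its single probe set does not tell them apart. Because Alpl is the member whose change with Smarcb1 differed most between the lines, the 250 bases before each start are given, with the SOX letters in capitals on either strand. Neither window holds the RUNX letters. The 250 bases before the upstream start lie at chr4:137796385-137796634 and those before the downstream one at chr4:137766476-137766725, both on the minus strand.
Alpl upstream start: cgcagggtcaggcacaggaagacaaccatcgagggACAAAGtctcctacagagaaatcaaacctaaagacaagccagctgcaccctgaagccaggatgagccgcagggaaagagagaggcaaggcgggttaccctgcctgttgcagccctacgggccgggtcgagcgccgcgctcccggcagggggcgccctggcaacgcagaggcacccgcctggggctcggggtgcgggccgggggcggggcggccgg
Alpl downstream start: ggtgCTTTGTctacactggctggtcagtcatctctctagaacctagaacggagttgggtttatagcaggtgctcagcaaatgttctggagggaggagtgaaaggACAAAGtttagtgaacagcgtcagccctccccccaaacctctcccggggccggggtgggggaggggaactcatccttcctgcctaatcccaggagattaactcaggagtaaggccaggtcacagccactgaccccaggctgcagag
A match is a description of letters, and nothing about binding was measured.

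Values are log2 signals normalized across arrays, and the median over all probe sets lay between 5.03 and 5.07 on the 4 arrays. Smarcb1 itself rose, going from 4.61 to 7.83 (line 167) and from 6.01 to 9.61 (line 365), so the labels of the vectors hold in both lines (limma adjusted p = 0.0371). Background was judged from 1190 olfactory and vomeronasal receptor genes, which are silent in most tissues outside the nose. Their 95th percentile lay between 4.20 and 4.26 on the arrays, close to the limit of 4.27 (the 30th percentile of gene means) below which a gene was not tested. With empty vector the Smarcb1 probe set itself read 0.41 above this percentile in line 167 and 1.75 above it in line 365, although both lines are labelled deficient, and which part of the gene it covers is not given here. By this measure 6 of the 8 genes were above background on all 4 arrays, as were 13210 of the 13956 tested genes. Acan was above it on 2 arrays and Sp7 on 0. Of the 1190 receptor genes, 20 had a mean at or above that of Sox5, 21 that of Sox6, 22 that of Comp and 52 that of Acan. Only Sox9 and Runx1 stood at least 1.79 above the receptor percentile on every array. For the others a small distance from background limits how large a decrease can appear.

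**Figure D1:**
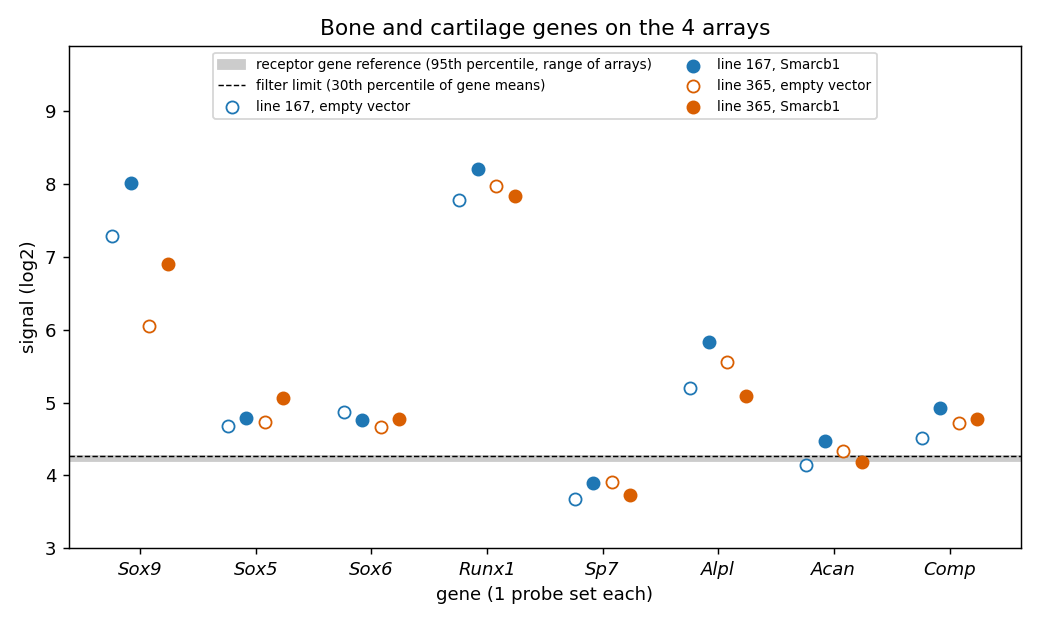
Signal (log2) of the 8 measured genes on each of the 4 arrays, with open points for empty vector, filled points for Smarcb1, blue for line 167 and orange for line 365; the grey band is the 95th percentile of receptor genes and the dashed line the filter limit. Sox9 spreads from 6.05 to 8.01, Runx1 lies between 7.79 and 8.21, and Sp7 stays under the band on every array.

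Sox9 was the member with the largest spread over the arrays, 1.96 on the log2 scale. Its signal (probe set 10382328) was 7.29 with empty vector and 8.01 with Smarcb1 in line 167, and 6.05 with empty vector and 6.90 with Smarcb1 in line 365. Both arrays of line 167 were above both arrays of line 365, as for 29.1% of all tested genes, and within each line the Smarcb1 array was the higher. The order from lowest to highest was line 365 with empty vector, line 365 with Smarcb1, line 167 with empty vector and line 167 with Smarcb1. In such bulk RNA, fewer cells making a transcript and less of it per cell cannot be told apart. The arrays grouped by vector overlap, because line 365 with Smarcb1 stayed below line 167 with empty vector.

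Between the lines, Sox9 was lower in line 365. The difference, line 365 minus line 167, was -1.23 with empty vector (2.35-fold) and -1.11 with Smarcb1 (2.16-fold). Its mean was -1.17 ± 0.18 (moderated SE, 4 arrays; 95% interval -1.65 to -0.69), with limma adjusted p = 0.0284. In this comparison each side is 1 line, and its empty-vector and Smarcb1 arrays stand in as replicates. The interval and p therefore measure scatter between arrays, not between tumours or cultures, here and in every line comparison below. Sox9 was the 1 member of 7 tested that passed in this comparison, in which 10.9% of all tested genes passed and 5.64% passed as lower in line 365, so a count of 1 is near the background. The call ended when the vector was left out of the model (limma adjusted p = 0.172, with the same difference).

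With Smarcb1, Sox9 was higher by 0.73 in line 167 (1.65-fold) and by 0.85 in line 365 (1.80-fold). The mean increase was 0.79 ± 0.18 (moderated SE; 95% interval 0.31 to 1.27), which did not pass over all genes (limma adjusted p = 0.256; unadjusted p = 0.00863). It was the 1 member at least 1.5-fold higher in both lines, which 2.79% of tested genes were. Over all genes 0 of the 7 tested members passed in the comparison of vectors, against 0.0645% of all tested genes, and Sox9 alone had an unadjusted limma p below 0.05, against 11.6% of tested genes.

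The tested genes whose pattern over the 4 arrays was most like that of Sox9, by Euclidean distance between gene-centred log2 values, were Gabre, Klhl13 and Nfix. Gabre, a GABA-A receptor subunit gene, was at a distance of 0.15, with 5.89 and 6.68 in line 167 and 4.76 and 5.41 in line 365 (empty vector, then Smarcb1). Klhl13, which encodes an adaptor of a ubiquitin ligase, was at 0.16, and Nfix, a nuclear factor I gene, at 0.16. In all, 73 of the 13956 tested genes lay within 0.5 of Sox9.

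Sox5 and Sox6, the partners of Sox9 in cartilage, were dim and varied little. Sox5 (probe set 10549200) was at 4.68 and 4.79 in line 167 and at 4.73 and 5.06 in line 365, each pair given as empty vector and then Smarcb1. Its highest array was line 365 with Smarcb1, and the other 3 lay within 0.11 of each other. Sox6 (probe set 10567108) was at 4.87 and 4.76 in line 167 and at 4.66 and 4.78 in line 365, a range of 0.20 in which no line or vector stood apart. The mean change with Smarcb1 was 0.22 for Sox5 (95% interval -0.19 to 0.63) and 0.0030 for Sox6 (-0.40 to 0.41), with limma adjusted p of 0.635 and 0.997. For Sox6 the sign turned under quantile normalization and cyclic loess. The mean difference between the lines was 0.16 for Sox5 (-0.24 to 0.57) and -0.09 for Sox6 (-0.49 to 0.31), and neither passed.

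Runx1 was far above background in every sample. Its signal (probe set 10441003) was 7.79 and 8.21 in line 167 and 7.98 and 7.84 in line 365. The line 167 array with Smarcb1 was the highest and the same line with empty vector the lowest, so the arrays overlap by line and by vector. The change with Smarcb1 was 0.42 in line 167 and -0.13 in line 365, with a mean of 0.15 ± 0.21 (moderated SE; limma adjusted p = 0.820). The 95% interval was -0.39 to 0.68. The lines differed by -0.09 (-0.62 to 0.45).

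Sp7, the osteoblast factor that acts after Runx2, was at 3.68 and 3.90 in line 167 and at 3.91 and 3.74 in line 365 (probe set 10433003). Every array lay below the receptor percentile, with differences of -0.52 to -0.35, and 134 of the 1190 receptor genes had a mean at or above that of Sp7. No signal above background was shown for Sp7, and it was not tested.

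Alpl, the alkaline phosphatase of bone, liver and kidney, was higher with Smarcb1 in one line and lower in the other. Its signal (probe set 10517587) was 5.21 with empty vector and 5.84 with Smarcb1 in line 167, and 5.56 and 5.08 in line 365. The Smarcb1 arrays were thus both the highest and the lowest of the 4. The change was 0.63 in line 167 (1.55-fold) and -0.47 in line 365 (0.720-fold), and the mean of 0.08 ± 0.30 (moderated SE) did not pass (limma adjusted p = 0.945). The mean turned to -0.0073 under quantile normalization. Line 365 minus line 167 was 0.35 with empty vector and -0.75 with Smarcb1. Opposite changes of at least 1.2-fold in both lines were found in 4.57% of tested genes. How far the responses of the lines differ has no test in this design.

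The cartilage matrix genes were close to background. Acan, the gene of the proteoglycan aggrecan, was at 4.14 and 4.48 in line 167 and at 4.33 and 4.18 in line 365 (probe set 10554249). Only line 167 with Smarcb1 and line 365 with empty vector were above the receptor percentile, and the mean of 4.28 barely exceeded the limit for testing. Comp, which encodes cartilage oligomeric matrix protein, was at 4.52 and 4.92 in line 167 and at 4.72 and 4.78 in line 365 (probe set 10572378), between 0.31 and 0.67 above that percentile. The mean change with Smarcb1 was 0.10 for Acan (95% interval -0.35 to 0.54) and 0.23 for Comp (-0.20 to 0.66), with limma adjusted p of 0.863 and 0.640. Between the lines the differences were -0.05 for Acan and 0.03 for Comp, and neither passed.

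**Figure D2:**
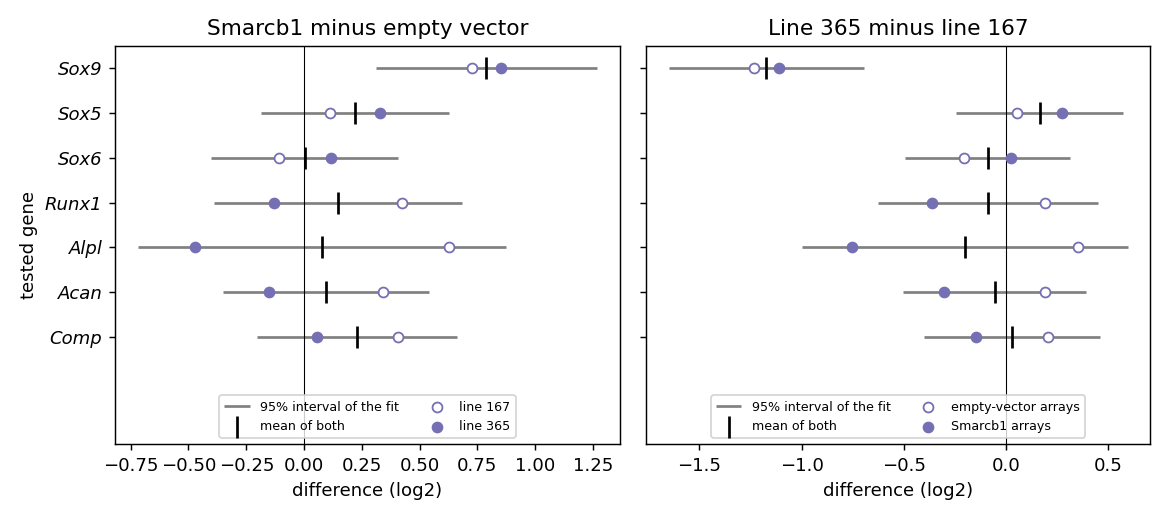
Differences (log2) of the 7 tested genes between the vectors (left) and between the lines (right): open and filled points give the single lines or vectors, the tick their mean and the bar the 95% interval of the limma fit. The bars of Sox9 lie wholly above 0 on the left (0.31 to 1.27) and wholly below 0 on the right, and all other bars cross 0.

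Set side by side, 7 of the 8 genes had the higher signal with Smarcb1 in line 167 and 4 of 8 in line 365. Higher in both lines were 3 of 8 (Sox9, Sox5 and Comp). Opposite signs were found for the other 5, which are Sp7 and 4 of the 7 tested members, and for 39.8% of tested genes. The counts of 7, 4 and 3 have no share of all tested genes beside them, so they only describe the members. At least 1.5-fold higher were Sox9 and Alpl in line 167, and Sox9 in line 365, where 6.93% and 6.49% of tested genes reached that size. Over the 7 tested members the change had a median of 0.40 (line 167) and 0.06 (line 365), against -0.06 and -0.0058 over all tested genes.

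**Figure D3:**
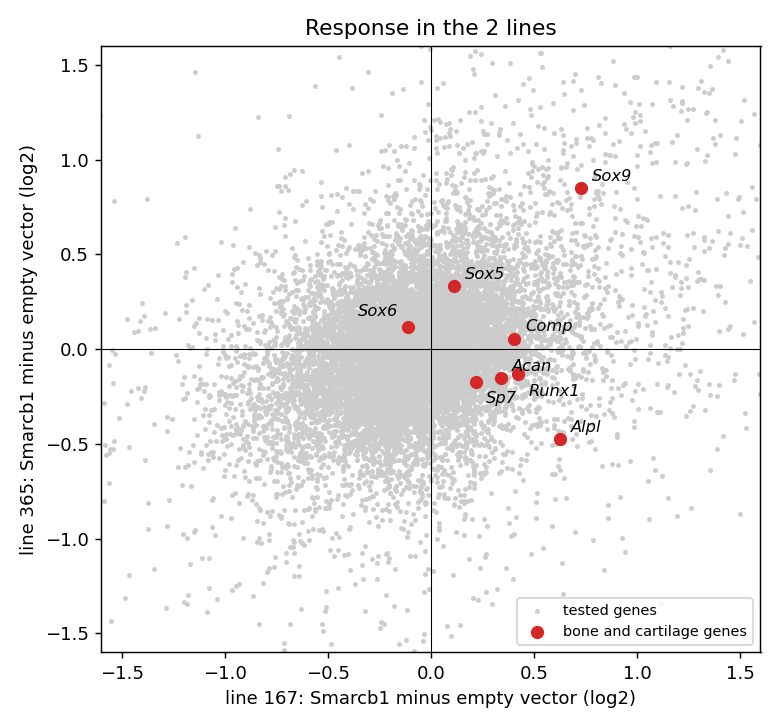
Change with Smarcb1 in line 167 (horizontal) against line 365 (vertical), both log2, for the 8 measured genes (red) and all tested genes (grey; 379 genes lie outside the axes). Sox9 is in the upper right at 0.73 and 0.85, and Alpl in the lower right at 0.63 and -0.47.

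Other members of the SOX family gave 2 higher and 1 lower gene in line 365 among 14 tested, where 10.9% of all tested genes passed (limma, adjusted over all genes). For the vector 0 were called, against 0.0645% of all tested genes, with 2 higher and 0 lower at an unadjusted limma p below 0.05, against 11.6%. Sox4, a factor of progenitor cells, was at 7.67 and 8.92 in line 167 and at 9.06 and 10.04 in line 365, so it was higher with Smarcb1 in both lines (mean 1.11, limma adjusted p = 0.113). Between the lines Sox4 went the other way from Sox9, with a difference of 1.25, higher in line 365 (limma adjusted p = 0.0162). Sox11, of the same subgroup as Sox4, was at 7.38 and 7.02 in line 167 and at 4.18 and 4.27 in line 365, a difference of -2.97 (adjusted p = 0.00501). It was above the receptor percentile on 1 of the 2 arrays of line 365, so the size of this difference is uncertain. Both arrays of line 365 were below the limit for testing (4.2701). Sox11 thus passed the filter only through line 167, the line in which it is high. Sox21 was higher in line 365 by 1.12 (adjusted p = 0.0285). The median change of the list was 0.12 in line 167 and 0.05 in line 365.

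Among RUNX partners and osteogenic transcription factors, 18 were tested and 0 passed for the vector, where 0.0645% of all tested genes did. At an unadjusted limma p below 0.05, 2 were higher and 1 lower (11.6% of all tested genes). Cbfb, the DNA-binding partner of all Runx proteins, changed by 0.08 in line 167 and by -0.01 in line 365. Twist1, which restrains Runx2 in osteoblast precursors, changed by 1.16 and 0.40, and Twist2 by 1.01 and 0.59. The corepressor gene Tle4 changed by -0.65 and -0.59. Between the lines 4 passed, where 10.9% of all tested genes did. Twist1 was lower in line 365 (-1.87, limma adjusted p = 0.0191), as was Zfp521, a zinc finger antagonist of Runx2 (-1.39, adjusted p = 0.0280). Runx1t1 was higher (1.91, adjusted p = 0.0104), as was Atf4, a stress-responsive factor needed in osteoblasts (0.87, adjusted p = 0.0496). The median change was 0.07 in line 167 and 0.03 in line 365.

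Of 26 listed genes of cartilage matrix and chondrocytes, 17 were tested. Above the receptor percentile were 15 on all 4 arrays and 5 on no array. Of all 13956 tested genes, 13210 were above it on all 4 arrays. Over all genes 0 passed for the vector, where 0.0645% of all tested genes did. At an unadjusted limma p below 0.05, 0 were higher and 1 lower (11.6% of all tested genes). Col2a1, the collagen that defines cartilage and a textbook target of Sox9, was at 6.28 and 6.54 in line 167 and at 6.06 and 6.38 in line 365, a mean change of 0.29 (limma adjusted p = 0.605). Papss2, which supplies sulphate for proteoglycans, changed by -0.55 in line 167 and by -1.72 in line 365 (adjusted p = 0.315). Chst11, a chondroitin sulphotransferase gene, was the 1 gene called between the lines, higher in line 365 by 2.59 (adjusted p = 0.00501), where 10.9% of all tested genes were called. The median change was 0.16 in line 167 and 0.04 in line 365. Hapln1 and Matn1, which encode proteins of mature cartilage matrix, were above the receptor percentile on no array; these 2 were singled out after their values were seen.

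Genes of osteoblasts and bone matrix gave different counts in the lines, without a test of that difference. Of 20 tested, 9 were at least 1.5-fold higher with Smarcb1 in line 167 and 2 in line 365, and 1 in both, where 6.93%, 6.49% and 2.79% of all tested genes reached that size. Of the 9, Postn and Ogn were above the receptor percentile on 1 and 2 arrays, all of line 167, and so passed the filter through the line in which they are counted; Postn was named after its values were seen. The median changes were 0.53 and -0.12. Over all genes 0 passed for the vector in the limma fit, with 1 higher and 0 lower at an unadjusted p below 0.05 (11.6% of all tested genes). Col1a1, which encodes the main collagen of bone, was at 7.91 and 10.56 in line 167 and at 6.38 and 6.41 in line 365. Col1a2, its partner chain, was at 7.02 and 8.76 and at 5.75 and 5.75. Vdr, the vitamin D receptor gene, and Tnfrsf11b, which encodes the osteoclast inhibitor osteoprotegerin, were higher by 1.64 and 1.48 in line 167 and changed by -0.20 and -0.13 in line 365; both were chosen after their values were seen. Ank, a pyrophosphate transporter gene, changed by 0.13 in line 167 and by 2.24 in line 365. Between the lines 4 genes were lower in line 365, as were 5.64% of all tested genes, and 1 was higher, as were 741 of all 13956 tested genes. Ogn, a small leucine-rich proteoglycan gene, was at 8.85 and 10.24 in line 167 and, below background, at 2.93 and 2.69 in line 365. It was at least 39.5-fold lower in line 365, taking the receptor percentile as the level there (limma adjusted p = 0.00424). That p-value used the values below background as they stand, and Ogn passed the filter only through line 167. Cdh11, the cadherin of osteoblasts and other mesenchyme, differed by -3.97 (adjusted p = 0.00303). Ank differed by -2.74 (adjusted p = 0.0396) and Col1a2 by -2.14 (adjusted p = 0.0491), while the phosphate transporter gene Slc20a1 was higher by 0.67 (adjusted p = 0.0455). Of the 25 matched genes of this list, 18 were above the receptor percentile on all 4 arrays, among them Sost, Fgf23 and Phospho1. So were 13210 of the 13956 tested genes, so passing this bar says little about the list. Fgf23, between 4.73 and 4.86, lay below the median over all probe sets on each array. The 3 genes above the receptor percentile on no array were Ibsp, Dmp1 and Mepe, matrix genes of mature osteoblasts and osteocytes. All of these genes were chosen after their values were seen.

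**Figure D4:**
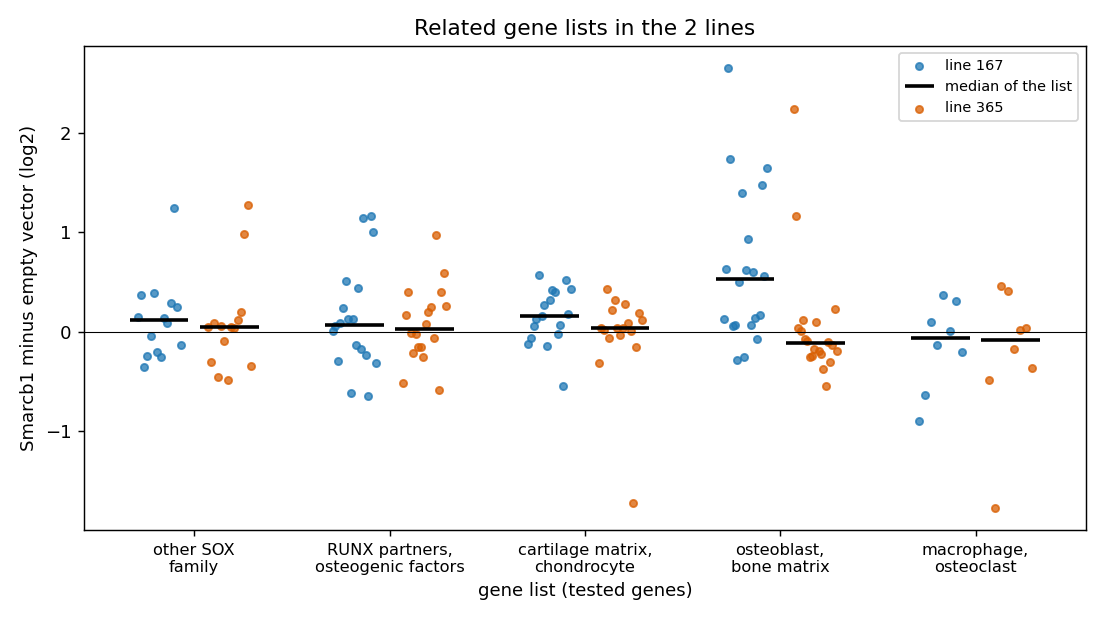
Change with Smarcb1 (log2) of each tested gene in the 5 related lists, in line 167 (blue) and line 365 (orange), with the median as a black bar. The medians of the osteoblast and bone matrix list, 0.53 and -0.12, lie farthest apart.

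Markers of macrophages and osteoclasts, cells that also make Spp1 or Runx1, were examined as the other cell type such cultures could hold. Of 18 matched genes 9 were above the receptor percentile on no array and 6 on all 4, as were 13210 of the 13956 tested genes. Among the 9 were Ptprc, Spi1, Adgre1, Itgam and Lyz2, which define blood and myeloid cells and were named after their values were seen. The 6 were Cd68, Csf1r, Acp5, Nfatc1, Mmp9 and Ocstamp. Of these, Acp5 changed by -0.90 in line 167 and by -0.48 in line 365 (limma adjusted p = 0.304). The log2 summed signal of the list was 10.04 and 9.66 in line 167 and 10.47 and 9.50 in line 365, lower with Smarcb1 in both. Without Cd68 the sum was 8.68 and 8.63 in line 167 and 8.74 and 8.76 in line 365, and the median level of the list was 4.04 and 4.12 in line 167 and 4.10 and 4.14 in line 365. Cd68, a lysosomal protein gene, was at 9.32 and 8.69 in line 167 and at 9.95 and 8.18 in line 365 (limma adjusted p = 0.273). In the list 0 of 8 tested genes passed for the vector or between the lines, where 0.0645% and 10.9% of all tested genes did. At an unadjusted limma p below 0.05, 0 were higher and 2 lower for the vector (11.6% of all tested genes). For line 365, 1 was higher and 0 were lower (30.8% of all tested genes).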

How the data were processed

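Per the submitters' processing notes, the authors summarised probe sets as log2 signals using RMA (Affymetrix Expression Console). The software version and build are not stated in those notes. RMA corrects the background and quantile-normalizes the arrays, so a change in total RNA per cell is not visible. Of 35556 probe sets, the platform annotation gives 1 symbol for 21789 and several for 1621, and 12146 are unnamed here. The probe set with the highest mean stood for each gene, and testing was limited to the 13956 genes whose mean reached the 30th percentile (log2 4.27).

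The model held a term for the line and one for the vector (limma 3.58.1 in R 4.3.3, lmFit and eBayes with an intensity trend; two-sided p, Benjamini-Hochberg over all tested genes, threshold 0.05). It has 1 residual degree of freedom and 3.75 prior ones. Pairing follows from the cell lines; deviations of same-line arrays correlated at 0.770 across genes. Standard errors are moderated across genes. A single line has no test. The number of arrays limits the precision.

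All members and every called list gene are named, with the 3 profiles nearest Sox9. From each list the naming rule also took up to 4 genes of largest change or line difference and the brightest. Not all of the genes so taken are named. Genes outside the rule are named as well, marked where they were chosen after their values were seen. Members and lists were chosen with earlier results of these data known. Of 109 list genes, 104 were matched. Alternatives were other filters, normalizations, thresholds and models.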

Additional observations from a re-analysis of the deposited data

Results flagged for a closer look

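Each value here is the response of line 365 minus the response of line 167 (log2), for a gene that was higher with Smarcb1 in one line and lower in the other, among the members and the 38 list genes that the naming rule took. Each response rests on 1 array per vector, the difference was not tested, and 39.8% of all tested genes had opposite signs. Of the 8 measured members, 5 were of this kind: Alpl (-1.10), Runx1 (-0.55), Acan (-0.49), Sp7 (-0.39) and Sox6 (0.23). Acan and Sp7 lay at or under background on at least 2 arrays. Among the SOX and RUNX-related genes the values were 0.45 for Sox11, 0.30 for Sox18, -1.21 for Tle1, 0.57 for Zfp521, -0.53 for Atf4 and -0.095 for Cbfb. Among cartilage and bone genes they were -0.63 for Col11a1, -0.36 for Col9a2, -1.64 for Ogn, -0.29 for Slc20a1 and -0.47 for Sparc, and for the osteoclast protease gene Ctsk the value was 0.55. Ogn lay below background on both arrays of line 365.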

How the results depend on the processing

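Without the cell line as a replicate block, 0 genes passed for the vector (450 at an unadjusted limma p below 0.05), against 9 with it. With the vector left out of the model, 653 passed between the lines, against 1528. Among the alternatives, only quantile normalization and cyclic loess could turn a member's direction, as the other settings left its difference unchanged. Of 102 tested values of the members under the alternatives, 98 kept their direction and side of the threshold, a count that those other settings raise. The exceptions were Sox9 between the lines, not past the threshold without the vector term, and 3 changes with Smarcb1 that turned sign: Sox6 (-0.047 after quantile normalization, -0.028 by cyclic loess) and Alpl (-0.0073 after quantile normalization). For the vector, dropping the filter gave 68 genes and raising it to the 50th percentile 101; quantile normalization of the gene values gave 68 and cyclic loess 28. A threshold of 0.10 gave 103 for the vector and 2915 between the lines. Between the lines, the 3 other SOX genes called became 5 without the filter, without the intensity trend or after quantile normalization, and 6 at the threshold of 0.10. The 4 RUNX partners and osteogenic factors became 2 without the vector term and 7 at that threshold, and the 5 bone genes 2 without the vector term or the intensity trend. The Sox9 increase ranged from 0.78 to 0.85 over the settings (limma adjusted p 0.155 to 1) and its line difference from -1.17 to -1.13 (0.0135 to 0.172). Leaving out a line or a vector leaves 1 array per arm and no test; of 28 such values 9 had the other sign than the mean, 4 for the vector (Sox6, Runx1, Alpl and Acan) and 5 between the lines (these and Comp). The sums without Cd68 were added after seeing the data.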
